A study of Mus musculus with 6 samples.

Results

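The IL-33 and type 2 cytokine receptor genes are 10 genes taken by symbol from the 17342 named genes of each table: Il33, Il1rl1, Il1rap, Il4ra, Il13ra1, Stat6, Gata3, Rora, Areg and Penk. All 10 had a row, and 8 reached the mean of 1 FPKM (a level per transcript length and per mapped fragment) that the test required. Gata3 and Areg did not, and are given by their values. The rule names the genes and sets no threshold on a measured value. They were read in the inguinal depot of white fat, which lies under the skin, of 8-week-old C57BL/6 mice kept in the cold. Wild-type mice (WT, libraries 1 to 3) were set against Rarres2-/- mice (libraries 4 to 6), which carry a disrupted gene for the adipocyte-secreted protein chemerin. Both genotypes were cold-stimulated, so the tables compare genotypes and not temperatures. The sources used here do not say which part of Rarres2 is disrupted or whether each library is a separate mouse, and p-values then measure only the spread between these libraries.

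IL-33 is an alarmin, a cytokine stored in the nucleus of stromal and barrier cells and set free when those cells are damaged or stimulated. It binds ST2 (Il1rl1), which pairs with the accessory chain Il1rap on group 2 innate lymphoid cells (ILC2), regulatory T cells and mast cells. ILC2, which depend on the transcription factors Gata3 and Rora, answer with IL-5 and IL-13, and can make amphiregulin (Areg) and enkephalin peptides (from Penk). IL-4 and IL-13 signal through Il4ra and Il13ra1 to the transcription factor Stat6. In subcutaneous fat this circuit is known for its link to beige adipocytes, and fibroblast-like progenitors marked by Pdgfra, with Dpp4 and Pi16 in one of their subsets, are known as a main source of IL-33.

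For Il33 and Il1rl1 the RefSeq promoter table (GRCm38.p6) gives 2 start sites each, while the deposited tables give 1 value per gene. The annotated Il1rl1 gene begins before both of its windows, so these need not be all of its starts. The start that was used cannot be told apart in any value below. The 250 bases before each listed start are printed 5′ to 3′ on the plus strand, because Gata3, Rora and Stat6 are themselves among the genes measured. Capitals mark the letters of 3 motifs searched on both strands: AGATAA or TGATAA for GATA factors, the ROR half-site AGGTCA, and the palindromic STAT6 motif with a spacer of 4 free bases. No motif found overlapped another.
Il33 window 1, chr19:29924863-29925112: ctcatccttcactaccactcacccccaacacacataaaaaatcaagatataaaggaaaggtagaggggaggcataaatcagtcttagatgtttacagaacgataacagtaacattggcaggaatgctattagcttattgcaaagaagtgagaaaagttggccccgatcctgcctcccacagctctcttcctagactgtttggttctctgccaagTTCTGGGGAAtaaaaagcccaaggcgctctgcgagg
Il33 window 2, chr19:29945540-29945789: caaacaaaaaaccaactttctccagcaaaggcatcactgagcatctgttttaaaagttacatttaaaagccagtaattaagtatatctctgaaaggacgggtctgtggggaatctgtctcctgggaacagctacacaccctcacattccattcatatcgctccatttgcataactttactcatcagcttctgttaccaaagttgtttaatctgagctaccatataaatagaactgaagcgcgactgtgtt
Il1rl1 window 1, chr1:40429320-40429569: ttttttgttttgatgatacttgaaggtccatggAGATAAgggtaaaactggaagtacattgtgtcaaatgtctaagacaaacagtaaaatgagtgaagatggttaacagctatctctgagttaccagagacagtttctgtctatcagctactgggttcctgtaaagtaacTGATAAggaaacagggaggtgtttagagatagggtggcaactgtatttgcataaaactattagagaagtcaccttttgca
Il1rl1 window 2, chr1:40439379-40439628: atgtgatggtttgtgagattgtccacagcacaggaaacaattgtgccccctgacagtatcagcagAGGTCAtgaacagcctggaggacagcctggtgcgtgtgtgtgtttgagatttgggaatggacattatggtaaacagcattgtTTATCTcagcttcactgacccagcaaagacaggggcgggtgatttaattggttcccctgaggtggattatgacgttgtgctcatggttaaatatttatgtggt
Il33 window 1 held 1 STAT6 motif, 36 bases before the start counted from the motif's first base, and Il33 window 2 held none of the 3 motifs. Il1rl1 window 1 held 2 GATA motifs, and Il1rl1 window 2 held 1 GATA motif and 1 ROR half-site. Of 32851 RefSeq windows of this length, 16.6% held a GATA motif, 14% the ROR half-site and 5.85% the STAT6 motif. Promoter windows were found for 9 of the 10 genes (11 windows), all but Penk. Among the other 7 windows, only that of Stat6 held a match, a ROR half-site. These matches describe letters and are not binding sites.

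Libraries differed in ways that genotype does not describe. WT replicate 1 stood apart, with a relative depth of 0.485 against WT replicate 2, where the other libraries had 0.698 to 1.01, and with 62.1% of its summed FPKM in the small nucleolar RNA gene Snord2. The summed level of 12 progenitor and fibroblast markers was 1191 FPKM in that library, 5297 and 3945 FPKM in WT replicates 2 and 3, and 2196 to 2457 FPKM in Rarres2-/-. Its 9 mast cell markers summed to 8.87 FPKM against 75.0 to 153 FPKM elsewhere. Outside WT replicate 1 the sum was held mostly by Cma1, Mcpt4, Tpsb2 and Cpa3. Kit (1.84 FPKM), Hdc (0.722 FPKM) and Ms4a2 (0.128 FPKM) in WT replicate 1 lay within the range of the other libraries. Rarres2-/- replicate 4 also stood apart. The 5 blood endothelial markers summed to 186 FPKM in WT replicate 1, 115 FPKM in Rarres2-/- replicate 4 and 24.9 to 31.6 FPKM in the remaining libraries. WT replicate 1 was the lowest library for 28.9% of all genes tested and Rarres2-/- replicate 4 for 28.5%, the others for 7.75% to 12.8%. The part of these library differences in the results below was not tested, and in whole tissue fewer cells of a type and less RNA per cell cannot be told apart. Rarres2 was at 0.260, 6.35 and 1.41 FPKM in Rarres2-/- and at 436 FPKM or more in WT. Adipocyte markers were abundant in every library, with a sum over 5 genes of 27444 FPKM in Rarres2-/- replicate 4 and 37416 to 56668 FPKM elsewhere. Fabp4 held most of each sum and was lowest in Rarres2-/- replicate 4, as was Adipoq. Plin1 (844 FPKM) and Cidec (1786 FPKM) in that library lay above all WT libraries, and Lep (193 FPKM) lay within the WT range.

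By level, which FPKM gives per transcript length, Stat6 led the 10 genes at a mean of 20.5 FPKM over the 6 libraries and lay above the next gene, Penk (10.03 FPKM), in all 6. Penk lay above Rora (7.04 FPKM) in 3 of 6 libraries and Rora above Il33 (6.25 FPKM) in 3 of 6, so this order is not beyond the spread. Il33 was above Il4ra (5.49 FPKM) in 4 libraries, and Il4ra above Il13ra1 (4.43 FPKM) in 4. Il13ra1 exceeded Il1rap (1.95 FPKM) in all 6 libraries, Il1rap exceeded Il1rl1 (1.26 FPKM) in 5, and Il1rl1 exceeded Gata3 (0.475 FPKM) in 5. Areg (0.0804 FPKM) was lowest in all 6. 6 steps in this order thus had libraries on both sides, and the receptor chains for IL-33 lay below those for IL-4 and IL-13 in their means.

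**Figure D1:**
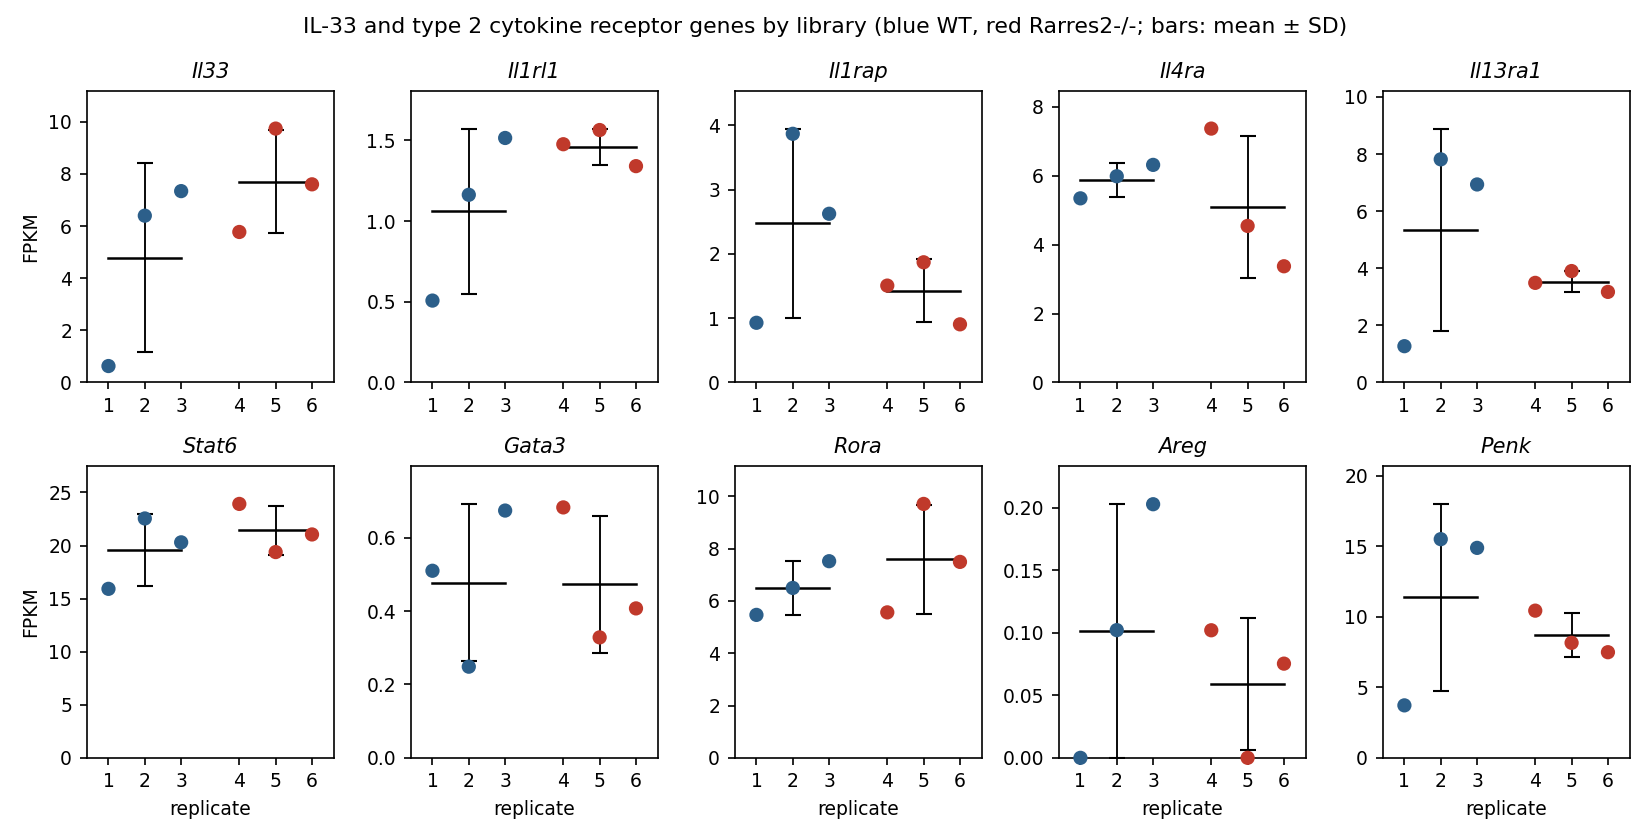
FPKM of each gene (y axis, own scale per panel) in WT replicates 1 to 3 (blue) and Rarres2-/- replicates 4 to 6 (red), with horizontal lines at group means and bars of ± SD over 3 libraries. WT replicate 1 is the lowest library for Il33, Il1rl1, Il13ra1, Stat6, Rora, Areg (tied at 0 with Rarres2-/- replicate 5) and Penk. Over all genes tested it is the lowest for 28.9%, and Rarres2-/- replicate 4 for 28.5%.

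None of the 8 genes tested passed the threshold between genotypes over the 6 libraries weighted equally. With limma, 0 of 8 had a Benjamini-Hochberg adjusted p under 0.05 over the 11086 genes tested, each at an adjusted p of 0.999, and over all genes tested the share called was 0%. Rarres2, the disrupted gene, was tested and was not called either, so a missing call here does not show that a gene was unchanged. Without adjustment, 436 genes and none of the 8 had a p under 0.05. Of the 8, 4 had a higher mean log2 level in Rarres2-/- and 4 a lower one, with a median log2 difference of -0.0130 beside -0.00699 over all genes tested. The libraries of the genotypes overlapped for all 10 genes, where 10.3% of all genes tested had groups that did not overlap (5.81% higher and 4.53% lower in Rarres2-/-). Without WT replicate 1 the 3 Rarres2-/- libraries lay below both remaining WT libraries for Il1rap, Il13ra1 and Penk, 3 of the 8 tested, against 14.8% of all genes tested.

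Il33 (chromosome 19, 29925113 to 29960718, on GRCm38 as for all positions given here) was at 0.631, 6.40 and 7.34 FPKM in WT replicates 1 to 3 and at 5.77, 9.74 and 7.60 FPKM in Rarres2-/- replicates 4 to 6. One WT library was thus about an order of magnitude below the other 5, which overlapped. WT averaged 4.79 ± 3.63 FPKM (SD, n = 3). Rarres2-/- averaged 7.70 ± 1.98 FPKM (SD, n = 3), which is 1.61 times that of WT. On the log2(FPKM + 1) scale the difference was 0.88 (SE 0.609, 95% interval -0.57 to 2.33, limma adjusted p = 0.999). It was 0.12 (SE 0.216) without WT replicate 1, whose Il33 was 0.0919 times the mean of WT replicates 2 and 3, and 0.71 to 1.30 when any other library was left out.

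The IL-33 receptor chains did not follow one direction. Il1rl1 (chromosome 1, 40404864 to 40465418), the ST2 chain that binds IL-33, was at 0.508, 1.16 and 1.52 FPKM in WT and at 1.48, 1.56 and 1.34 FPKM in Rarres2-/-. Its WT values reached both below and into the narrow Rarres2-/- range. The log2 difference was 0.29 (SE 0.224), and leaving out WT replicate 1 gave 0.08 and WT replicate 3 0.45. Il1rl1 encodes a membrane-bound and a soluble decoy form of ST2, which 1 value per gene does not separate. Il1rap (chromosome 16, 26581509 to 26730128), the accessory chain that IL-1 and IL-36 receptors also use, was at 0.929, 3.87 and 2.62 FPKM in WT and at 1.51, 1.87 and 0.904 FPKM in Rarres2-/-. WT replicates 2 and 3 were the highest of the 6, while WT replicate 1 lay within the Rarres2-/- range. Its log2 difference was -0.44 (SE 0.357), and -0.81 (SE 0.237, limma adjusted p = 0.363) without WT replicate 1. It was -0.14 without WT replicate 2 and -0.27 without Rarres2-/- replicate 6, and the sign was the same in all 14 alternatives that gave a value.

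Il4ra (chromosome 7, 125552271 to 125579474), the chain shared by the IL-4 and IL-13 receptors, was at 5.35, 5.99 and 6.32 FPKM in WT. In Rarres2-/- it was at 7.37, 4.54 and 3.37 FPKM, so that the WT libraries lay between the Rarres2-/- ones. Its log2 difference was -0.23 (SE 0.243), -0.48 without Rarres2-/- replicate 4 and -0.01 without Rarres2-/- replicate 6. Il13ra1 (chromosome X, 36112108 to 36171262), which joins Il4ra in the receptor that non-lymphoid cells use, was at 1.27, 7.81 and 6.93 FPKM in WT and at 3.49, 3.902 and 3.17 FPKM in Rarres2-/-. All 3 Rarres2-/- libraries fell between WT replicate 1 and the other WT libraries. The log2 difference was -0.26 (SE 0.498). It was -0.89 (SE 0.139, limma adjusted p = 0.184) without WT replicate 1, and changed sign to 0.09 and 0.01 when WT replicate 2 or 3 was left out. With array weights, which give libraries far from their group less weight, it was -0.74 (limma adjusted p = 0.0452), in a fit that called 6.8% of genes lower. In that fit Rarres2-/- replicate 5 had a weight of 6.19, against 0.179 and 0.736 for replicates 4 and 6, so the Rarres2-/- level rested mostly on replicate 5.

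Stat6 (chromosome 10, 127642955 to 127660987), which both receptors activate, varied least of the 10 genes. It was at 15.9, 22.6 and 20.3 FPKM in WT and at 23.9, 19.4 and 21.0 FPKM in Rarres2-/-, a span of 1.503 times from lowest to highest. The log2 difference was 0.13 (SE 0.174, 95% interval -0.28 to 0.55), and -0.00159 without WT replicate 1. Rora (chromosome 9, 68653404 to 69388246), a nuclear receptor of the clock that ILC2 need for their development, was at 5.46, 6.49 and 7.52 FPKM in WT and at 5.56, 9.71 and 7.49 FPKM in Rarres2-/-. Its groups overlapped, with a log2 difference of 0.18 (SE 0.212) that ranged from 0.00 without Rarres2-/- replicate 5 to 0.36 without Rarres2-/- replicate 4, with 0.08 and 0.27 when WT replicate 1 or 3 was left out. Gata3 (chromosome 2, 9857078 to 9887953) was at 0.510, 0.249 and 0.674 FPKM in WT and at 0.683, 0.328 and 0.407 FPKM in Rarres2-/-. It stayed below 1 FPKM in every library, with means of 0.478 ± 0.215 and 0.473 ± 0.186 FPKM (SD, n = 3 each).

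Areg (chromosome 5, 91139599 to 91148432), a ligand of the EGF receptor, was listed at 0 in WT replicate 1 and Rarres2-/- replicate 5. In the other libraries it was at 0.102 and 0.203 FPKM in WT and at 0.102 and 0.0754 FPKM in Rarres2-/-. These levels do not allow a comparison, since FPKM gives no count of the reads behind them. Penk (chromosome 4, 4133536 to 4138815), the enkephalin precursor, was at 3.72, 15.5 and 14.9 FPKM in WT and at 10.4, 8.15 and 7.49 FPKM in Rarres2-/-. As for Il13ra1, the Rarres2-/- libraries fell between WT replicate 1 and the other WT libraries. The log2 difference was -0.16 (SE 0.478), -0.75 (SE 0.168, limma adjusted p = 0.251) without WT replicate 1, and changed sign to 0.15 and 0.12 when WT replicate 2 or 3 was left out. With array weights, where Rarres2-/- replicate 5 had most of the weight of its group, it was -0.76 (limma adjusted p = 0.0353). Without both WT replicate 1 and Rarres2-/- replicate 4 it was -0.88 (SE 0.109, limma adjusted p = 0.0488), in a fit that called 0.487% of genes lower.

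**Figure D2:**
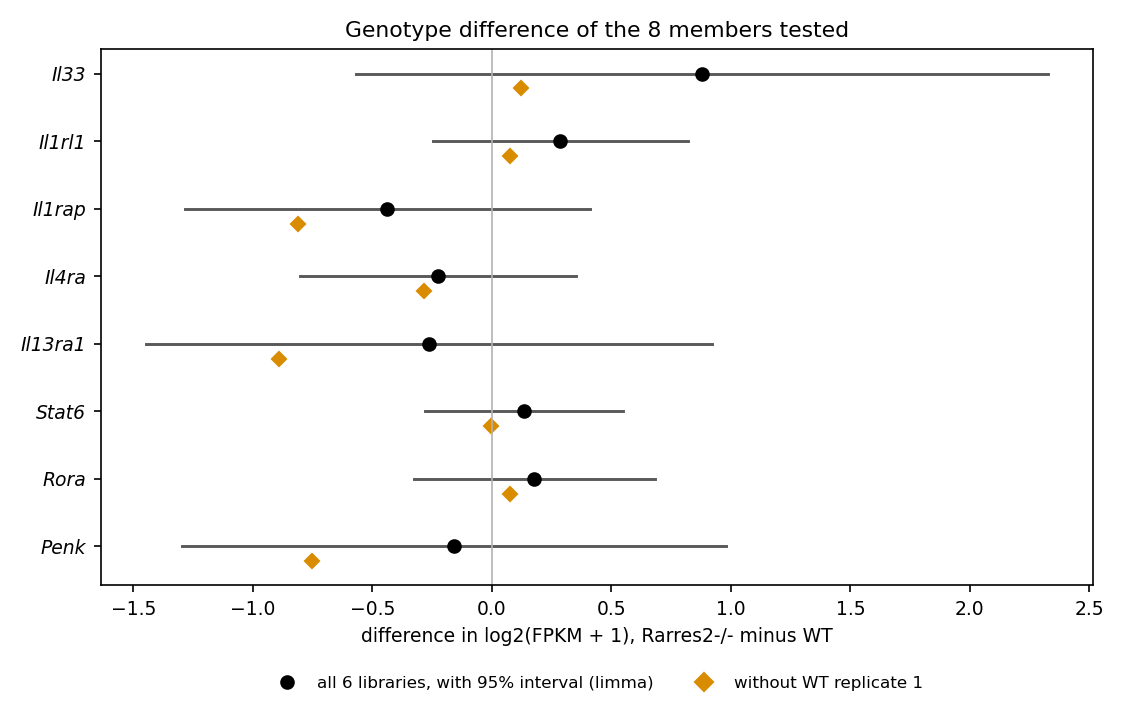
Difference in log2(FPKM + 1), Rarres2-/- minus WT (x axis), for the 8 genes tested (y axis). Black points with lines are limma estimates and 95% intervals over 6 libraries, and orange diamonds are estimates without WT replicate 1. Every interval spans 0, and leaving out WT replicate 1 moves Il33 from 0.88 to 0.12 and Il13ra1 from -0.26 to -0.89.

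Il33 was then set against the progenitor genes Pdgfra, Dpp4 and Pi16 in each library. Pdgfra, a growth factor receptor of fibroblasts, was at 5.16, 19.7 and 18.9 FPKM in WT and at 12.3, 13.7 and 9.16 FPKM in Rarres2-/-. Dpp4, a surface peptidase, was at 0.692, 30.1 and 31.5 FPKM in WT and at 9.47, 15.8 and 9.73 FPKM in Rarres2-/-. Pi16, a secreted protein of adventitial fibroblasts, was at 12.3, 358 and 352 FPKM in WT and at 124, 182 and 132 FPKM in Rarres2-/-. All 3 were lowest in WT replicate 1, highest in WT replicates 2 and 3, and intermediate in Rarres2-/-. Il33 shared the low value of WT replicate 1, while of the Rarres2-/- libraries replicate 4 lay between WT replicate 1 and the other WT libraries and replicates 5 and 6 lay above all WT libraries.

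Over the 6 libraries, log2(FPKM + 1) of Il33 had a Pearson r of 0.77 with Pdgfra, 0.87 with Dpp4 and 0.90 with Pi16. The exact permutation p (two-sided, n = 6) was 0.1, 0.0764 and 0.0861, each 0.1 after adjustment over the 3 relations. Spearman's rho was 0.31, 0.54 and 0.49, with exact permutation p of 0.564, 0.297 and 0.356 (0.564, 0.533 and 0.533 adjusted, n = 6). Without the 2 libraries farthest from the median of the progenitor gene, r was 0.08, 0.02 and 0.26. Without WT replicate 1 alone it was -0.14, 0.04 and -0.02, so the relation over 6 libraries, with the genotypes pooled, rests on that library. Each genotype has 3 libraries, too few for a correlation within it. With the genotype means taken out, r over the 6 libraries was 0.95, 0.99 and 0.99, and without WT replicate 1 it was 0.21 for Pdgfra, 0.87 for Dpp4 and 0.88 for Pi16. These are descriptions with no test, the latter over 5 libraries.

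**Figure D3:**
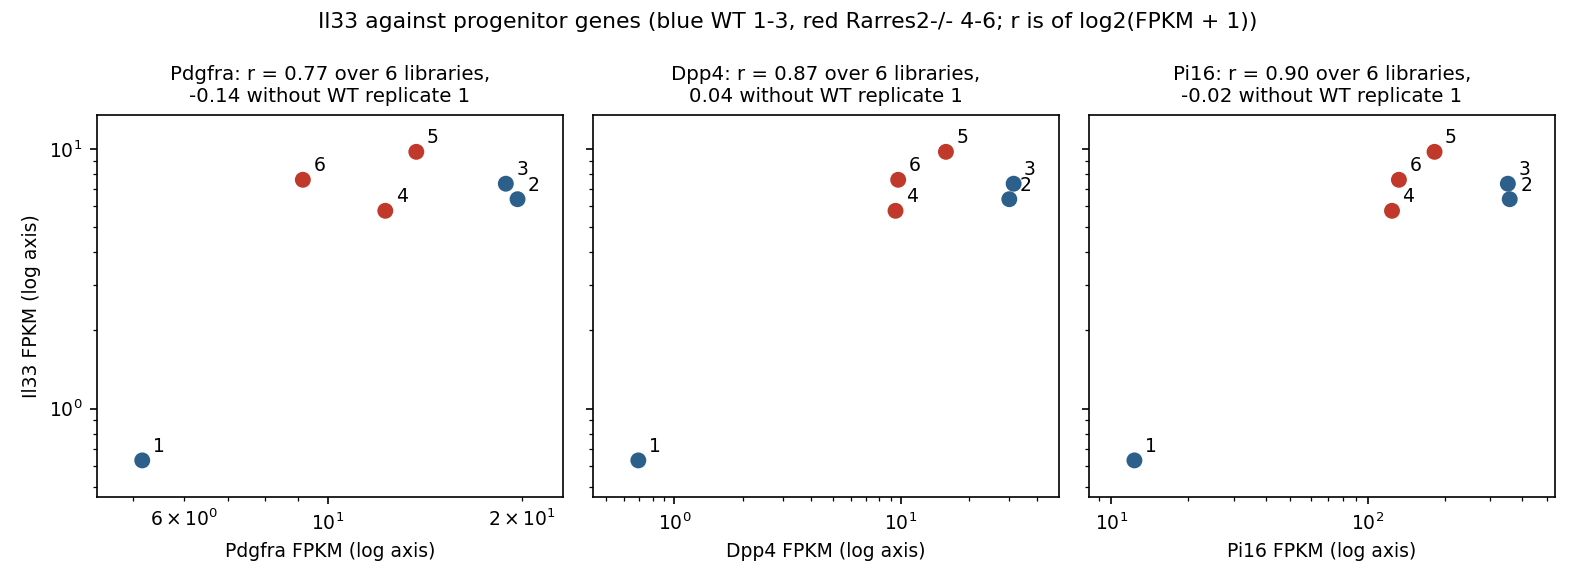
Il33 FPKM (y, log axis) against Pdgfra, Dpp4 and Pi16 FPKM (x, log axes), 1 point per library, WT 1 to 3 in blue and Rarres2-/- 4 to 6 in red. WT replicate 1 lies alone at the lower left of each panel, and the other 5 libraries hold Il33 between 5.77 and 9.74 FPKM.

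The ratio of Il33 to a progenitor gene within a library does not depend on how that library was scaled. Il33 over Pdgfra was 0.122, 0.325 and 0.389 in WT and 0.470, 0.710 and 0.830 in Rarres2-/-, so that every Rarres2-/- library exceeded every WT library. The mean log2 ratio differed by 1.39, a 2.62-fold difference (two-sided exact permutation p = 0.1, which is the smallest that 3 against 3 libraries allow, and 0.3 adjusted over 3 ratios). Of 11051 tested genes above 0 in every library, 0.507% had a ratio to Pdgfra that separated the genotypes in this direction. Pdgfra was lowest in WT replicate 1 (5.16 FPKM), so a gene at a similar level in all libraries had its highest ratio there. The small share thus depends on WT replicate 1, where Il33 was at 0.631 FPKM. The log2 difference was 0.87 without WT replicate 1, where the groups were still apart. There, 74.2% of genes were higher in this sense, since Pdgfra itself was lower in Rarres2-/- than in WT replicates 2 and 3.

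Il33 over Dpp4 was 0.912, 0.212 and 0.233 in WT and 0.610, 0.616 and 0.781 in Rarres2-/-. Here WT replicate 1 had the highest ratio of all 6 libraries. The log2 difference was 0.90 (exact permutation p = 0.4, two-sided, n = 3 each, adjusted p = 0.4). Leaving out WT replicate 1, 2 or 3 gave 1.58, 0.53 and 0.59 in turn. Over all 6 libraries 0.00905% of genes had ratios to Dpp4 that were separated upward in Rarres2-/-, and Il33 was not among them. Il33 over Pi16 was 0.0513, 0.0179 and 0.0208 in WT and 0.0464, 0.0534 and 0.0574 in Rarres2-/-. WT replicate 1 lay within the Rarres2-/- range, and the log2 difference was 0.97 (exact permutation p = 0.2, two-sided, n = 3 each, adjusted p = 0.3), or 1.44 without WT replicate 1. Ratios to Pi16 were separated upward for 0.0181% of genes. Without that library all 3 Rarres2-/- ratios exceeded both WT ratios for Dpp4 and Pi16, as did 94.5% and 93.9% of genes over the same denominators.

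**Figure D4:**
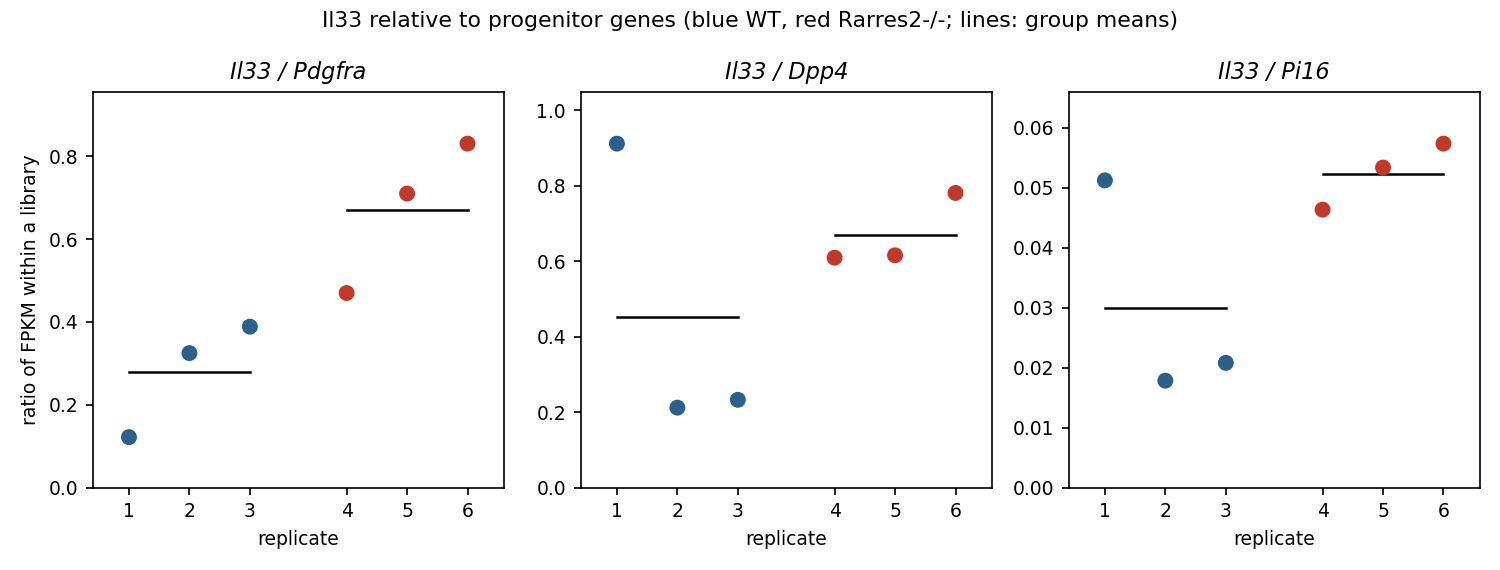
Ratio of Il33 FPKM to Pdgfra, Dpp4 and Pi16 FPKM within each library (y axis from 0), WT replicates 1 to 3 in blue and Rarres2-/- replicates 4 to 6 in red, with lines at group means. For Pdgfra the Rarres2-/- libraries (0.470 to 0.830) lie above WT (0.122 to 0.389), and for Dpp4 and Pi16 WT replicate 1 lies with or above the Rarres2-/- libraries.

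The other genes of the group were also set over Pdgfra, a comparison chosen after the Il33 values were seen and given without a test. Il1rl1 over Pdgfra was 0.0983, 0.0591 and 0.0802 in WT and 0.1202, 0.114 and 0.146 in Rarres2-/-, again with all Rarres2-/- libraries higher. Il1rap over Pdgfra was 0.180, 0.196 and 0.139 in WT and 0.123, 0.136 and 0.0988 in Rarres2-/-, with all Rarres2-/- libraries lower. Relative to Pdgfra, Il33 and Il1rl1 were thus higher in Rarres2-/- and Il1rap lower, while the libraries overlapped for Il4ra, Il13ra1, Stat6, Gata3, Rora and Penk. Without WT replicate 1, 74.2% of genes were higher over Pdgfra in every Rarres2-/- library than in both WT libraries. The log2 differences of Il33 and Il1rl1 themselves were then 0.12 and 0.08. Groups did not overlap in either direction for 1.08% of genes over Pdgfra in all 6 libraries, WT replicate 1 with its low Pdgfra included. The ratio to Pdgfra ran from 0.594 to 0.849 for Penk and from 0.246 to 0.397 for Il13ra1 over the 6 libraries, a span of 1.43 and 1.61 times. Across libraries their r with Pdgfra was 0.97 and 0.98, a description over 6 points of which WT replicate 1 is the lowest for all 3 genes.

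The genes most like Il33 over the 6 libraries were Vps41 (r = 0.999), a vesicle tethering factor, the actin capping subunits Capza1 (0.997) and Capza2 (0.996), the small GTPase gene Rab18 (0.995), and Gm16039 (0.995). All 5 were lowest in WT replicate 1, and Vps41 spanned only 17.1 to 31.6 FPKM. An r of 0.9 or more was reached by 464 of 11085 genes (4.19%). Among the 11085 genes Il1rl1 ranked 103rd with an r of 0.96, Pi16 468th, Dpp4 670th and Pdgfra 1409th. Il13ra1, Penk, Stat6 and Rora had r between 0.70 and 0.73, Il1rap 0.44 and Il4ra -0.14. These values have no test, and the 6 points share the low WT replicate 1.

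Other type 2 ligands were scarce. Of 9 listed, 8 had a row and 2 were tested, with 1 higher and 1 lower in Rarres2-/- and 0 called. Tslp, an epithelial and stromal cytokine that acts on the same lymphoid cells, was at 0.835, 4.38 and 3.25 FPKM in WT and at 1.81, 2.25 and 1.68 FPKM in Rarres2-/-. Il7, their survival factor, was at 0.723 to 1.11 and 0.878 to 1.42 FPKM. The ILC2 products Il5 and Il13 were listed at 0 in 4 and 3 of the 6 libraries and reached at most 0.139 and 0.215 FPKM, and Il13 was above 0 in the 3 Rarres2-/- libraries only, at a level too low to compare. Il4 was listed at 0 in 3 libraries and reached at most 0.395 FPKM. Il25 was listed at 0 in all 6.

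Of 12 further receptor genes, 8 were tested, 1 higher and 7 lower, with a median log2 difference of -0.19 beside -0.01 over all genes tested, and 0 were called. Those with the smallest p were Il17ra (-0.26), Il17rb (-0.20) and Il2rg (-0.23), which serve IL-25 and the common gamma chain family, and Sigirr (-0.24), an inhibitor of the IL-33 receptor. Il1rl2, the IL-36 receptor that also pairs with Il1rap, was at 1.19, 11.5 and 11.4 FPKM in WT and at 6.88, 6.49 and 2.88 FPKM in Rarres2-/-. As for Il13ra1, the Rarres2-/- libraries lay between WT replicate 1 and the other WT libraries. The eosinophil receptor gene Il5ra was at 0.0863 FPKM or less.

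All 12 signalling genes were tested, 4 higher and 8 lower (median -0.07), with 0 called. Groups did not overlap for 3 of the 12, beside 10.3% of all genes tested. Irs2, an adaptor of the insulin and IL-4 receptors, was at 4.72, 4.36 and 5.59 FPKM in WT and at 14.9, 9.06 and 11.6 FPKM in Rarres2-/- (log2 difference 1.104, SE 0.196, limma adjusted p = 0.880). Socs1, a feedback inhibitor of JAK kinases, was at 4.51, 3.86 and 3.15 FPKM in WT and at 2.23, 1.48 and 1.95 FPKM in Rarres2-/- (-0.74, SE 0.178, limma adjusted p = 0.990). Myd88, the adaptor that carries the IL-33 signal, was at 14.6, 17.6 and 16.5 FPKM in WT and at 12.7, 13.4 and 12.3 FPKM in Rarres2-/- (-0.31, SE 0.133). Map3k7, the kinase TAK1, had a log2 difference of 0.30 with overlapping libraries.

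Among 13 Stat6 targets of macrophages, 8 were tested, 5 higher and 3 lower (median 0.06), with 0 called. Retnla, the most abundant, was at 241, 1331 and 1892 FPKM in WT and at 942, 1223 and 1119 FPKM in Rarres2-/-. Ccl24, an eosinophil-attracting chemokine, was at 3.73, 23.2 and 29.4 FPKM in WT and at 8.79, 6.76 and 7.42 FPKM in Rarres2-/-. Both had the low WT replicate 1 seen in Il33. The 9 macrophage markers summed to 465 FPKM in that library, 1989 and 1988 FPKM in WT replicates 2 and 3, and 916 to 1170 FPKM in Rarres2-/-. All 9 had a lower mean log2 level in Rarres2-/-, as did 5703 of the 11086 genes tested, with 0 called. The 6 mast cell and 5 adipocyte markers tested all had a higher one, also with 0 called. Clec10a had a log2 difference of -0.39 and Ccl11 one of 0.28. Ccl17, a chemokine for T helper 2 cells, was at 0.929, 0 and 1.07 FPKM in WT and at 1.13, 1.67 and 1.34 FPKM in Rarres2-/- (0.58, SE 0.306).

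For the effectors, the receptor and processing genes were read as well. Of 11 EGF receptor and ligand genes, 10 had a row and 5 were tested, 2 higher and 3 lower, with 0 called. Egfr, the receptor of amphiregulin, was at 5.68, 13.5 and 13.7 FPKM in WT and at 14.1, 8.52 and 6.35 FPKM in Rarres2-/-. Nrg4, an adipocyte-secreted ligand of ErbB receptors, was at 42.8, 39.4 and 35.0 FPKM in WT and at 48.4, 53.0 and 63.2 FPKM in Rarres2-/- (0.47, SE 0.167, limma adjusted p = 0.999). The 3 others with the smallest p were Erbb2 (-0.22), Btc (0.14) and Adam17 (-0.08), all with overlapping libraries. Of 7 enkephalin genes 2 were tested, 1 higher and 1 lower, with 0 called. Mme, the peptidase that degrades enkephalins, was at 11.99, 16.5 and 19.5 FPKM in WT and at 21.9, 24.4 and 20.5 FPKM in Rarres2-/- (0.47, SE 0.198, limma adjusted p = 0.999), while Cpe, which trims them, had a log2 difference of -0.16. The prohormone convertase genes Pcsk1 and Pcsk2 reached at most 0.0443 and 0.0576 FPKM. Oprm1 was listed at 0 in all libraries, and Oprk1 and Oprd1 reached at most 0.0175 and 0.292 FPKM. Among relatives of Gata3, the libraries of Gata2 (log2 difference -0.44) and Gata6 (-0.04) overlapped between genotypes.

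Cells that could carry these genes were read from marker lists, by the sum of their members in FPKM. The 11 ILC2 and T cell markers summed to 27.7 to 69.1 in WT and 26.0 to 39.7 in Rarres2-/-, of which Thy1, also a fibroblast gene, held 18.0 to 44.4. The ILC2 marker Ptgdr2 (listed as Gpr44) was at 0 in 2 libraries and at most 0.0498 FPKM. Regulatory T cell markers summed to 1.81 to 4.18, with Foxp3 at 0 in 2 libraries and Il10 in 1. Those of eosinophils summed to 0.0460 to 0.967, with Epx at 0 in 5 libraries, Siglecf (listed as Siglec5), Ccr3 and Prg2 each in 2 and Il5ra in 1. Mesothelial markers summed to 1.30 to 3.56, with Upk3b at 0 in 5, Wt1 in 4 and Msln in 1 library. Epithelial markers summed to at most 1.60, with Krt8 and Krt5 at 0 in 5 libraries and Krt18 and Krt14 in 3. Of the mast cell markers, Fcer1a and Tpsab1 were at 0 in WT replicate 1. The 5 skeletal muscle markers summed to 878 in WT replicate 1 and to 78.7 to 274 elsewhere. Lymphatic endothelial markers summed to 11.9 in WT replicate 1, 82.5 and 91.1 in WT replicates 2 and 3, and 33.2 to 59.7 in Rarres2-/-. Lyve1 and Pdpn held most of these sums. Flt4 went the other way and was highest in WT replicate 1 (1.72 FPKM), and Prox1 was at most 0.104 FPKM, so the sum does not describe all markers of this list. The part of these cells in the values of Il33, Il13ra1 and Penk was not tested.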

How the data were processed

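Per the labels, total RNA of inguinal white adipose tissue was sequenced from 3 WT and 3 Rarres2-/- samples, 1 library each. The authors deposited FPKM values, 1 table per library and named so per the file headers. For WT replicate 3 the header gives the sample and no unit, and its rows, zeros and scale matched FPKM. Alignment tool and build are Bowtie and mm10, per the submitters' processing notes. Versions, annotation, strand handling and the program behind FPKM are not stated in the sources used here. A table had 17342 genes with a symbol. Another 737 rows had none, made up 0.793% to 4.91% of summed FPKM and were left out. FPKM gives no counts, so absolute depth is unknown. Relative depth was read from ratios between values below 0.15 FPKM.

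The 11086 genes averaging 1 FPKM or more were tested on log2(FPKM + 1), which understates changes where values are low. The test was limma 3.58.1 in R 4.3.3 (trend, two-sided, genotype as the only term, Benjamini-Hochberg adjusted p under 0.05). Ratios and correlations used exact permutation tests. The genes, lists and tests were chosen with earlier results of these data known. Named genes are the 10 genes, Pdgfra, Dpp4 and Pi16, up to 4 genes with the smallest p from each list, genes needed to place a receptor or ligand, and the 5 most like Il33. Retnla, Il1rl2, Egfr and Thy1 were named with their values known. Symbols of 4 listed genes were matched by an older name, and 3 listed genes had no row. A further listed gene is not reported here. Coordinates and sequences are from RefSeq, GRCm38.p6. On values simulated for the 11086 genes of this comparison, limma called 33% of genes simulated with a log2 change of 1, and 79% at a change of 2. Noise was drawn for each gene separately, so no deviation was shared by the genes of a library. These shares therefore do not give the sensitivity on the deposited values, where 0 genes were called and Rarres2 itself was not.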

Additional observations from a re-analysis of the deposited data

How the results depend on the processing

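No paired analysis was possible because the genotypes share no replicate number. The count of genes past the threshold, 0 with limma (436 at an unadjusted p under 0.05), was 1 with upper-quartile scaling, 1 with scaling without small RNA genes, 1 with a filter of 5 FPKM in 3 libraries, 1524 with array weights and 68 without WT replicate 1 and Rarres2-/- replicate 4 together. It was 0 to 1 with each library left out. Array weights gave WT replicate 1 and Rarres2-/- replicate 4 the lowest weights (0.192 and 0.179). Rarres2-/- replicate 5 had the highest (6.19) and replicate 6 had 0.736, so the Rarres2-/- levels in that fit rested mostly on replicate 5. There Il13ra1 (-0.74, limma adjusted p = 0.0452) and Penk (-0.76, limma adjusted p = 0.0353) passed the threshold, in a fit that called 6.8% of genes lower. Penk also passed (-0.88) without WT replicate 1 and Rarres2-/- replicate 4, in a fit of WT replicates 2 and 3 against Rarres2-/- replicates 5 and 6. Stat6 turned to -0.11 with array weights and -0.0794 without WT replicate 1 and Rarres2-/- replicate 4.

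With each library left out in turn, the log2 difference ranged from -0.00159 to 0.24 for Stat6, from -0.89 to 0.0876 for Il13ra1 and from -0.75 to 0.15 for Penk. The correlation of Il33 ranged from -0.14 to 0.89 with Pdgfra, from 0.0366 to 0.91 with Dpp4 and from -0.0161 to 0.94 with Pi16, and without WT replicate 1 and Rarres2-/- replicate 4 it was -0.41, -0.49 and -0.57. The lowest value of each correlation came without WT replicate 1. Beyond the libraries left out or given less weight, the cause was not tested. Il33, Il1rl1, Il1rap, Il4ra, Rora and the 3 ratios kept their sign and side of the threshold in every alternative that gave a value. Il1rl1, Il1rap and Il13ra1 gave none under the filter of 5 FPKM. FPKM gives no read counts, so the precision of Gata3 and Areg is unknown, and 3 libraries a group cannot reach an exact permutation p under 0.1.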
